A study of Mus musculus with 20 samples.

Results

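The cytosolic ribosomal protein genes encode the proteins of the ribosome outside the mitochondria. They were taken here as the protein-coding mouse genes whose symbols begin with Rpl or Rps followed by a number and at most 1 letter, together with Rplp0, Rplp1, Rplp2 and Rpsa, provided that their mean level over all 20 libraries was at least 8 on the log2 scale of the deposited values. This gave 77 genes of 55335 in the table, 46 of the large subunit and 31 of the small subunit. The name rule alone matched 81 genes, and the 4 left out were the copies Rpl39l, Rps4l and Rpl10l, with mean levels of −1.74, −1.43 and −1.08, and Rpl3l, a striated muscle copy of Rpl3, at 6.23. The members nearest to the threshold were Rpl29 at 10.79, Rps18 and Rpl26 at 13.22 and Rps2 at 13.30, so the threshold fell in a wide gap. Rps3a1, Fau and Rack1 also belong to the cytosolic ribosome but carry other names, and are given below with the related genes.

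Each cytosolic ribosome holds 1 copy of most of these proteins, and their genes are expressed at high and closely matched levels in nearly every cell. Their mRNAs are known for a run of pyrimidines at the very 5′ end, the TOP motif, through which the kinase complex TORC1 and the RNA-binding protein LARP1 control how actively they are translated. In skeletal muscle, ribosome number is one of the things that sets the capacity for protein synthesis. RNA sequencing measures the abundance of the mRNAs and not their translation.

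The RNA came from C2C12 myotubes, multinucleated cells that form when this mouse myoblast line is kept in little serum, which received adenovirus on day 4 of differentiation and were collected 48 h later. The Per1 experiment set 5 libraries from myotubes that overexpressed Per1 against 5 from Gfp expressing myotubes, and the Per2 experiment set 5 libraries with Per2 against 5 other Gfp libraries. Per1 and Per2 are repressors of the molecular clock. Both Per viruses also carried Gfp, each coding sequence was driven by its own CMV promoter, and the Per viruses were added at a higher concentration than the Gfp virus, so that virus dose and Per overexpression cannot be told apart. All libraries come from a single cell line, and the cultures of an experiment were wells of the same experimental replicate, so that p values speak only of the spread from well to well.

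Levels are regularized log2 values (rlog), in which a difference of 1 is a doubling on the original scale before the authors' shrinkage drew differences toward 0. The size of the changes can therefore be understated, by an amount that these values do not show, and the read depth of each library is unknown. Differences are Per minus Gfp on this scale, given with the standard error (SE) from limma, and a gene counted as called when its adjusted p, over all genes tested, was 0.05 or less, with no threshold on the size of the difference. Transduction was evident in every library: Per1 rose by 4.31 in the Per1 experiment (Gfp 15.22 to 15.30, Per1 19.39 to 19.65), and Per2 rose by 4.89 in the Per2 experiment (Gfp 14.73 to 14.96, Per2 19.65 to 19.77). The mean level of 9 myotube markers ranged from 17.27 to 17.31 in the Gfp libraries and from 17.07 to 17.18 in the Per1 libraries, with 8 of the 9 lower with Per1. In the Per2 experiment it ranged from 16.72 to 16.92 with Gfp and from 16.68 to 16.77 with Per2, with 4 lower and 1 higher. Of 5 proliferating myoblast markers, 2 were higher and 1 lower with Per1, and 2 were higher and 0 lower with Per2. Their mean levels overlapped between groups in both experiments (13.64 to 13.76 with Gfp and 13.69 to 13.85 with Per1, 13.69 to 13.84 with Gfp and 13.75 to 13.94 with Per2). Of 4 markers of other cells, Adgre1 was listed at 0 in all 10 libraries of the Per2 experiment, and the mean over the 4 lay between 1.39 and 2.36 in every library. Only 1 of the 4 was high enough to be tested with Per1, and it was not called. With Per2, 2 were tested, and 1 was lower and 0 higher. The part of the differing markers in the results below was not tested.

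The start regions of the genes are shown first, because the TOP motif is the sequence feature by which these mRNAs are known. RefSeq promoters (build GRCm38.p6) were matched for 57 of the 77 members. A TOP-like tract was defined as a C followed by at least 4 more C or T bases, with that C no more than 5 bases from the annotated start, read on the strand of the gene; the run of pyrimidines may itself begin further upstream. By this definition 28 of the 57 members (49.1%) held a tract in at least 1 promoter, against 5718 of 27025 genes (21.2%), and 30 of 68 member promoters held 1 (44.1%), against 6027 of 32851 promoters in all (18.3%). The windows below run from 20 bases before to 20 bases from the annotated start onward, 5′ to 3′ on the gene's strand, with the tract in capitals where the search found it, and for genes with several starts the one with the longest tract is shown. The first 6 belong to genes that were called in the Per1 comparison, and the other 6 to genes that were called lower in the Per2 comparison and were in the table.
Rps27l (chr9:66946066-66946105, plus strand): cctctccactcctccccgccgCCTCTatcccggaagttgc
Rpl39 (chrX:37085203-37085242, minus strand): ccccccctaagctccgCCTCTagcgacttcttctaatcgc
Rpl41 (chr10:128549149-128549188, minus strand): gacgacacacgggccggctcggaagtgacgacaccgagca
Rps15 (chr10:80292411-80292450, plus strand): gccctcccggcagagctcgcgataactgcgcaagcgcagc
Rps2 (chr17:24720043-24720082, plus strand): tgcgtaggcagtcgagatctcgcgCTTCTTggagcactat
Rpl34 (chr3:130730318-130730357, minus strand): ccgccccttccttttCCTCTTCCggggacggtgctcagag
Rpl12 (chr2:32961692-32961731, plus strand): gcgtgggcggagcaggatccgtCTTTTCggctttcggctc
Rpl14 (chr9:120571497-120571536, plus strand): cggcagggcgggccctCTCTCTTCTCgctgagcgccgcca
Rplp2 (chr7:141447631-141447670, plus strand): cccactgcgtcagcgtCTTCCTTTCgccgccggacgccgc
Rps9 (chr7:3704021-3704060, plus strand): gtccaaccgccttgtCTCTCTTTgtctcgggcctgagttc
Rps12 (chr10:23787190-23787229, minus strand): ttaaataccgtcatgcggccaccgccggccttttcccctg
Rpsa (chr9:120127746-120127785, plus strand): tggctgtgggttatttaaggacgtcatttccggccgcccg
The search marked 5 to 10 bases in 8 of these 12 windows. In Rpl34, Rpl14, Rpl12, Rplp2 and Rps9 the pyrimidine run begins before the marked part, by several bases in Rpl34 and Rpl14 and by a T in the others, so the capitals do not show its whole length there. Rpl41, Rps15, Rps12 and Rpsa had none within the 5 bases, although the window of Rps12 shows a pyrimidine run further along, so the search depends on where the start was annotated. Rps27a, Rpl3, Rplp1 and Rpl29 were not matched.

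The members lie on 19 chromosomes, with 14 of the 77 on chromosome 7, 4 on chromosome X and at most 7 on any other. Small nucleolar RNAs, which guide the modification of ribosomal RNA, are annotated inside 29 of them. Ribosomal protein genes have many processed pseudogenes, and this bears on how their reads can be assigned. Of the 31-base sequences of a member's transcript, a median of 60.4% also occurred elsewhere in the GRCm39 genome, and in 47 members the share was at least 50%. How the authors' counting treated reads with several positions is not given in the sources used here, so the levels of those 47 members are uncertain. Per kilobase of annotated transcript, the highest levels were those of Rpl41, the smallest ribosomal protein (19.00), and of the stalk proteins Rplp1 (17.55) and Rplp0 (17.32). The lowest were those of Rpl29 (9.10), Rps15a (12.30) and Rpl5 (12.53). For them the annotation gives transcripts of 3243, 5136 and 3646 bases with coding parts of only 480, 390 and 891 bases. The ranks of Rps15a and Rpl5 thus lean on long annotated ends. Rpl29 had the lowest mean level before any correction for length, 10.79, with Rps18 next at 13.22.

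In Per2 overexpressing myotubes the ribosomal protein mRNAs were lower than in Gfp expressing myotubes by a small amount and across both subunits. Of the 77 genes, 36 fell and none rose, against 17.5% of all 20628 genes tested that were called lower and 18.6% that were called higher. The 36 make up 46.8% of the members, 19 of the 46 large subunit genes and 17 of the 31 small subunit genes. The median member difference was −0.066, or −4.50% on the original scale, while the median over all genes tested was 0.0006, and 71 of the 77 members lay below 0. The members varied together from library to library within groups (median r of 0.93 with the mean of the others). These calls and signs are therefore not independent of one another. At an unadjusted p under 0.05, 44 were lower and 0 higher. That rule takes in every gene called by adjusted p, so at least 17.5% of all genes tested were lower by it and 18.6% higher. Among the 4634 genes tested with a mean level of at least 13, which is the range of all members but Rpl29, 26.6% were called lower and 22.2% higher. In bulk RNA, fewer cells of a type and less RNA per cell cannot be told apart.

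**Figure D1:**
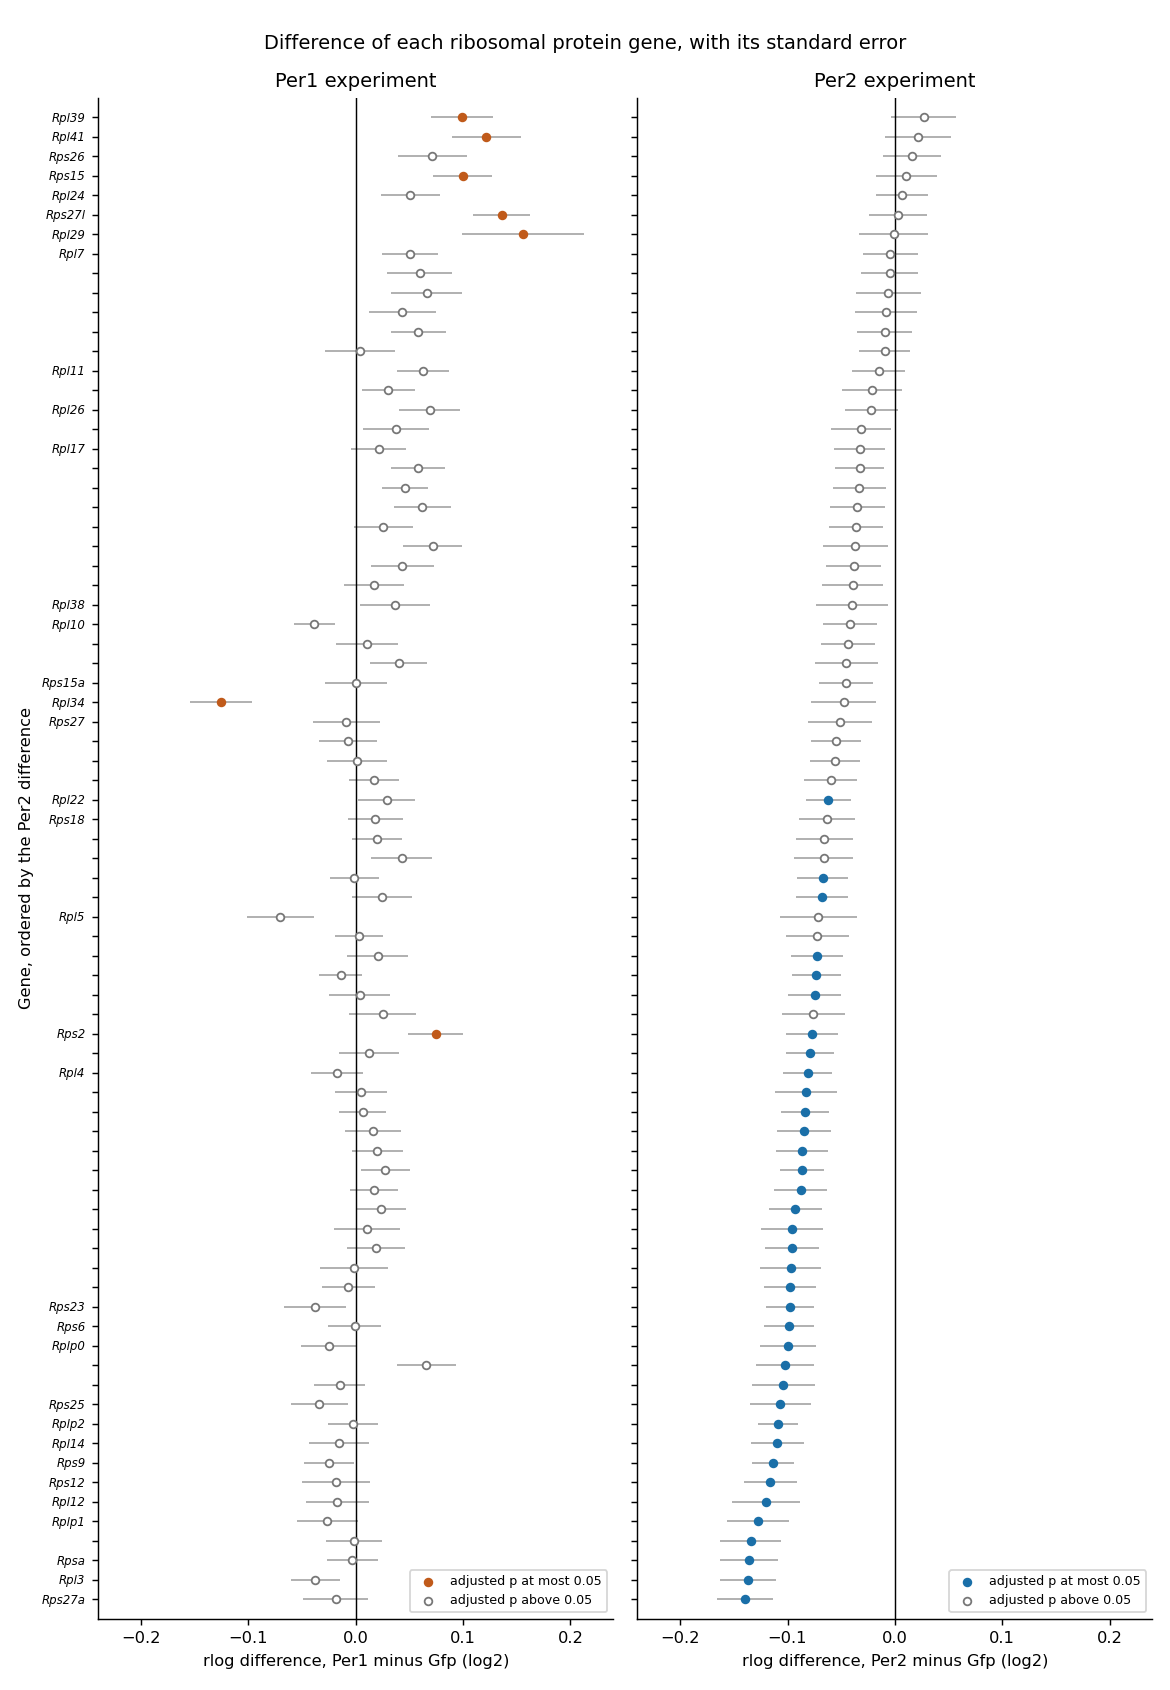
Difference of each of the 77 genes on the rlog (log2) scale, Per1 minus Gfp (left) and Per2 minus Gfp (right), with bars of 1 SE, genes ordered by the Per2 difference and names given for genes named in the text. Filled points passed the test (adjusted p up to 0.05): 6 higher and 1 lower with Per1, and 36 lower with Per2.

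The mean level over the 77 genes was 15.41 ± 0.054 (SD, n = 5) in the Gfp libraries and 15.35 ± 0.020 (SD, n = 5) in the Per2 libraries. By library it was 15.35, 15.36, 15.42, 15.47 and 15.46 in Gfp libraries 1 to 5, and 15.33, 15.35, 15.34, 15.38 and 15.35 in Per2 libraries 1 to 5. The ranges overlapped, because Gfp libraries 1 and 2 lay among the Per2 libraries while the other 3 Gfp libraries lay above all of them. Single genes whose 2 groups did not overlap numbered 14 lower and 0 higher, where 12.8% of all genes tested were lower and 13.5% higher without overlap. No member reached a difference of 0.5 in size, which 0.621% of all genes tested did with an adjusted p of at most 0.05.

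**Figure D2:**
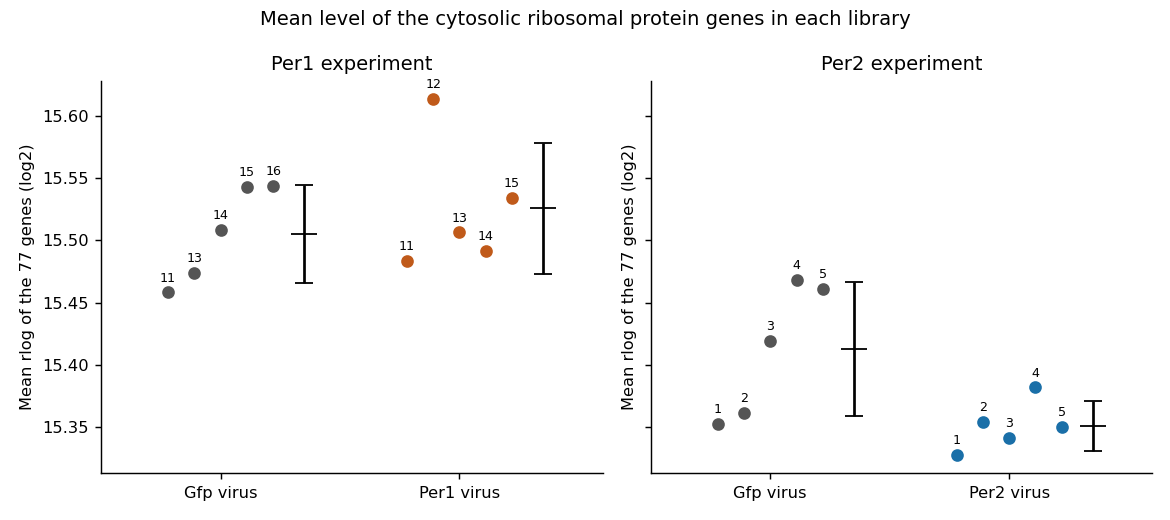
Mean rlog (log2) of the 77 genes in each library, labelled with its number, for the Per1 experiment (left) and the Per2 experiment (right), with the mean and SD of each group of 5 beside its points. Per1 library 12 stands at 15.61 above all others, and the Per2 libraries lie from 15.33 to 15.38; levels are not comparable between the experiments.

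When the median of all genes tested was subtracted from each library, the falls with Per2 became more numerous. After this centring 47 members were lower and 0 higher, against 24.8% of all genes lower and 13.4% higher, and the member median was −0.088 while that of all genes was −0.021. All 36 genes called without centring were among the 47. Member levels above the library median were 5.16 to 5.24 in the Gfp libraries and 5.10 to 5.16 in the Per2 libraries, and Per2 library 4 overlapped with Gfp libraries 1 and 2.

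The proteins of the ribosomal stalk, which recruits the GTPase translation factors, were all lower with Per2. Rplp1, a stalk P protein, was at 16.60, 16.60, 16.69, 16.76 and 16.72 in Gfp libraries 1 to 5 and at 16.51, 16.56, 16.53, 16.58 and 16.56 in Per2 libraries 1 to 5. All 5 Per2 libraries lay below all 5 Gfp libraries, and Rplp1 fell by 0.13 (SE 0.029, adjusted p = 0.00316). Its partner Rplp2 fell by 0.11 (SE 0.019, adjusted p = 0.00043), also without overlap. Rplp0, the base of the stalk, fell by 0.10 (SE 0.026, adjusted p = 0.00792), and Rpl12, which sits beside it on the 28S rRNA, fell by 0.12 (SE 0.032, adjusted p = 0.00897). For Rplp0 and Rpl12 the groups overlapped.

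Among the other large subunit proteins, Rpl3, which lies next to the peptidyl transferase centre, changed most. Its levels in Gfp libraries 1 to 5 were 14.72, 14.84, 14.73, 14.80 and 14.82, and in Per2 libraries 1 to 5 they were 14.60, 14.66, 14.63, 14.70 and 14.63. Every Per2 library lay below every Gfp library, the difference being −0.14 (SE 0.026, adjusted p = 0.001). Rpl4, whose loop lines the tunnel through which the new protein leaves, fell by 0.081 (SE 0.023, adjusted p = 0.0121), whereas Rpl17 and Rpl39, which also line that tunnel, had differences of −0.033 (adjusted p = 0.307) and 0.027 (adjusted p = 0.538). The proteins that bind 5S rRNA and, outside the ribosome, Mdm2, did not pass the test: Rpl5 had a difference of −0.071 (SE 0.036, adjusted p = 0.142) and Rpl11 of −0.015 (SE 0.025, adjusted p = 0.681).

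In the small subunit the largest differences were those of Rps27a and Rpsa. Rps27a is made as a fusion with ubiquitin, from which it is cut free. Its levels were 15.52, 15.52, 15.59, 15.65 and 15.64 in Gfp libraries 1 to 5 and 15.43, 15.46, 15.44, 15.47 and 15.43 in Per2 libraries 1 to 5. The groups did not overlap, and Rps27a fell by 0.14 (SE 0.026, adjusted p = 0.000856), which is −9.21% on the original scale. Rpsa, a late-joining protein of the small subunit also known as the laminin receptor precursor, was at 17.00, 17.03, 17.07, 17.15 and 17.11 with Gfp and at 16.90, 16.98, 16.90, 16.96 and 16.94 with Per2. Again no Per2 library reached a Gfp library, and the difference was −0.14 (SE 0.027, adjusted p = 0.00132). Rps9, which lies near the mRNA entry channel, and Rps12 of the beak fell by 0.11 (adjusted p = 0.000393) and 0.12 (adjusted p = 0.00197), and Rps6, the substrate of the S6 kinases, fell by 0.099 (SE 0.023, adjusted p = 0.00404). Rps25, known for its part in initiation at internal ribosome entry sites, fell by 0.11 (adjusted p = 0.00875), and Rps23 of the decoding centre fell by 0.098 (adjusted p = 0.00376).

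**Figure D3:**
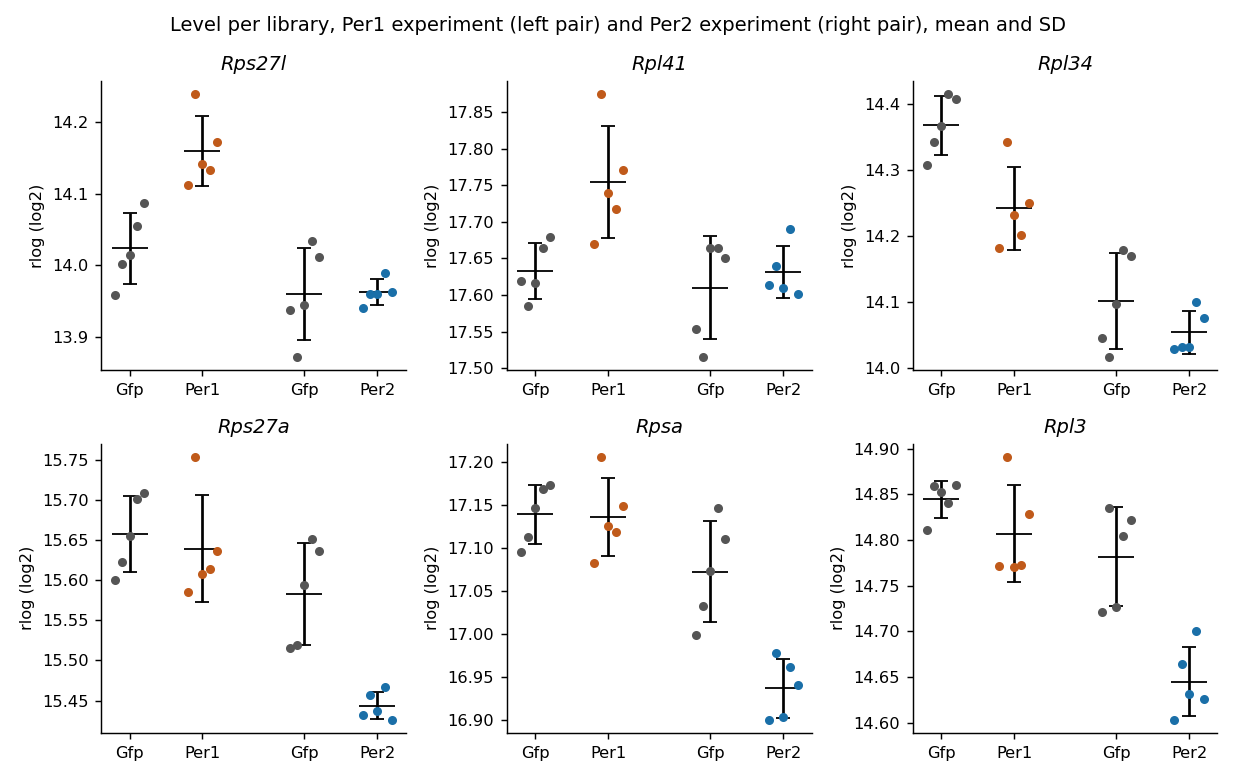
Level of 6 genes in each library on the rlog (log2) scale, with the mean and SD of each group of 5; the left pair in each panel is the Per1 experiment and the right pair the Per2 experiment, and each panel has its own axis. The Per1 libraries lie above their Gfp libraries in Rps27l, and the Per2 libraries lie below theirs in Rps27a, Rpsa and Rpl3.

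The members at the upper end in the Per2 experiment were Rpl39 (0.027, SE 0.031), Rpl41 (0.022, SE 0.031), Rps26 of the mRNA exit channel (0.016, SE 0.027), Rps15 of the decoding region (0.011, SE 0.029), Rpl24 of an intersubunit bridge (0.0070, SE 0.024) and Rps27l (0.0029, SE 0.027). None of these 6, the only members above 0, passed the test, their adjusted p values running from 0.538 to 0.947. Rpl29, the member with the lowest level, had a difference of −0.0012 (SE 0.032, adjusted p = 0.981).

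With Per1 the ribosomal protein genes showed no shared fall of this kind. Rpl29, Rps27l, Rpl41, Rps15, Rpl39 and Rps2 rose and Rpl34 fell, so 6 of the 77 were higher and 1 lower, both below the shares over all 20559 genes tested, of which 20.1% were higher and 20.6% lower. The median member difference was 0.017, with the middle of the members between −0.0031 and 0.043 (25th and 75th percentile), and the median of all genes tested was 0.0011. Among the 4863 genes tested with a mean level of at least 13, 20.8% were called higher and 36.7% lower, at a median of −0.023. Against those genes the members had a smaller share of falls and a higher median. Against other genes of that level with short coding sequences the median was not higher. In 274 such genes, with a coding length of at most 453 bases, it was 0.040. In the 39 members up to that length it was 0.025. The sign was positive in 52 members and negative in 25. Signs and calls are not independent here either, since the members varied together within groups (median r of 0.96). At an unadjusted p under 0.05, 15 members were higher and 2 lower. That rule takes in every gene called by adjusted p, so at least 20.1% of all genes tested were higher by it and 20.6% lower. Member SEs were of similar size in both experiments, with a median of 0.027 with Per1 and 0.026 with Per2.

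Per1 library 12 stood apart and carried part of this result. The mean level of the 77 genes was 15.61 in that library and 15.48, 15.51, 15.49 and 15.53 in Per1 libraries 11, 13, 14 and 15, against 15.46, 15.47, 15.51, 15.54 and 15.54 in Gfp libraries 11, 13, 14, 15 and 16. Without Per1 library 12 the member median was −0.0029, with 4 genes higher and 6 lower. The 4 were Rps27l, Rpl41, Rps15 and Rpl39, and the 6 were Rpl34, Rpl5, Rpl10, Rpl3, Rps9 and Rps23. With all 10 libraries and median centring 4 members were higher, the same 4 genes, and 3 were lower, Rpl34, Rpl5 and Rpl10, against 15.0% higher and 28.8% lower over all genes. The centred member median was −0.0047, beside −0.021 for all genes. Rps2 and Rpl29 were called in neither of these settings. Other settings raised the count of higher members, to 14 after quantile normalization and 12 without Per1 library 11. Shares over all genes were not taken for quantile normalization or for the fits without a library.

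Rps27l, a close paralog of Rps27 known as a target of p53, had the clearest rise. It was at 13.96, 14.00, 14.02, 14.06 and 14.09 in the Gfp libraries and at 14.11, 14.24, 14.14, 14.13 and 14.17 in the Per1 libraries. All Per1 libraries lay above all Gfp libraries, and Rps27l rose by 0.14 (SE 0.027, adjusted p = 0.000858), or 9.88%. Its paralog Rps27 had a difference of −0.0087 (adjusted p = 0.852). The other member without overlap between groups was Rps15, at 16.28, 16.28, 16.29, 16.35 and 16.35 with Gfp and 16.36, 16.51, 16.40, 16.37 and 16.42 with Per1, with a rise of 0.10 (SE 0.028, adjusted p = 0.00944). These 2 were the only members whose groups were apart, both higher, where 14.8% of all genes tested were higher and 15.0% lower without overlap, and no member reached a difference of 0.5, as 0.696% of all genes did with an adjusted p of at most 0.05.

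Rpl41, whose protein is a peptide that bridges the subunits, was at 17.62, 17.59, 17.62, 17.66 and 17.68 in the Gfp libraries and 17.67, 17.88, 17.74, 17.72 and 17.77 in the Per1 libraries. Only Per1 library 11 fell within the range of the Gfp libraries, and Rpl41 rose by 0.12 (SE 0.032, adjusted p = 0.00684). Rpl39, a small protein of the exit tunnel, rose by 0.099 (SE 0.029, adjusted p = 0.0131), from 15.18 ± 0.052 to 15.28 ± 0.058 (SD, n = 5 each). Rpl29, which lies on the surface of the large subunit, had the largest difference, 0.16, but also the largest SE, 0.057 (adjusted p = 0.04), its levels being 10.69, 10.72, 10.68, 10.94 and 10.92 with Gfp and 10.85, 10.92, 10.87, 11.03 and 11.05 with Per1. The Gfp libraries split into 3 near 10.7 and 2 above 10.9, so the groups overlapped widely.

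Rpl34, a large subunit protein, was the member that fell with Per1. It was at 14.31, 14.34, 14.37, 14.42 and 14.41 in the Gfp libraries and at 14.18, 14.34, 14.23, 14.20 and 14.25 in the Per1 libraries. Per1 library 12 lay among the Gfp libraries and the other 4 lay below all of them, and the difference was −0.13 (SE 0.029, adjusted p = 0.00267). With Per2, Rpl34 had a difference of −0.048 (SE 0.030, adjusted p = 0.248). Rps2, which lies at the mRNA entry site, was the only member called in opposite directions. In the Per1 experiment it was at 13.32, 13.34, 13.27, 13.32 and 13.36 with Gfp and 13.34, 13.46, 13.35, 13.39 and 13.44 with Per1 (0.074, SE 0.026, adjusted p = 0.0311). In the Per2 experiment it was at 13.24, 13.31, 13.26, 13.32 and 13.30 with Gfp and 13.20, 13.18, 13.22, 13.28 and 13.16 with Per2 (−0.077, SE 0.024, adjusted p = 0.0222). The groups overlapped both times, the Per1 call was lost on centring, and 86.2% of the 31-base sequences of Rps2 occur elsewhere in the genome. That share was also high for Rpl3 (93.1%) and Rpsa (91.2%), and lower for Rps27a (46.7%) and Rpl34 (19.0%).

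**Figure D4:**
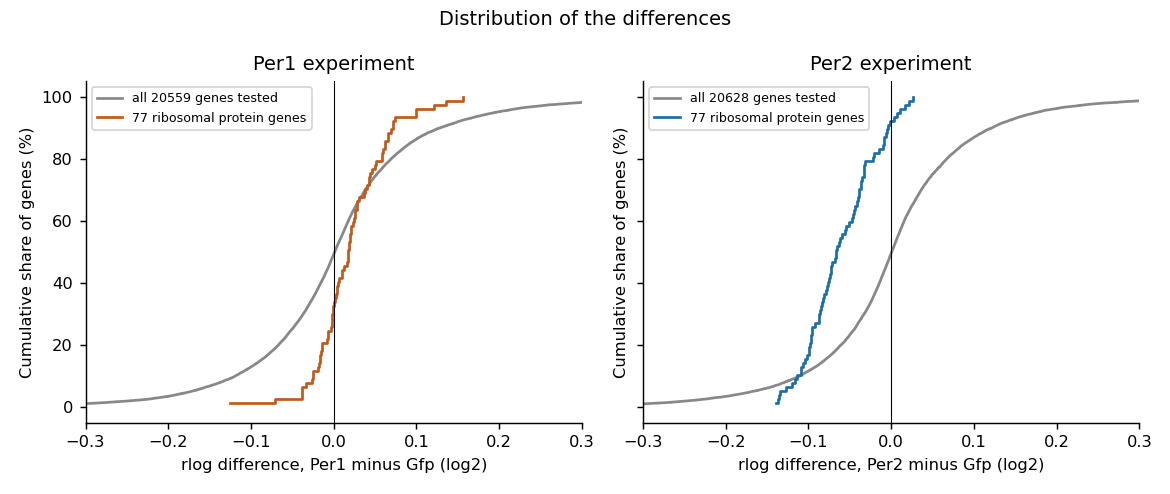
Cumulative share of genes (%) by their rlog difference (log2) for the 77 ribosomal protein genes (coloured steps) and all genes tested (grey line), Per1 minus Gfp (left, 20559 genes) and Per2 minus Gfp (right, 20628 genes); the axis is limited to −0.3 to 0.3. The members lie near 0 with Per1, at a median of 0.017, and below 0 with Per2, at a median of −0.066.

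The 77 genes varied together from library to library. After the group means were subtracted, a member correlated with the mean of the other members with a median r of 0.96 over the 10 libraries of the Per1 experiment and 0.93 over the 10 of the Per2 experiment, and this correlation exceeded 0.8 in 71 and 69 members. The points share library and scaling, so these values are a description. The members least like the rest were Rpl5 (0.25 with Per1, 0.28 with Per2) and Rpl29 (0.42 and 0.23), which with Rpl38 (SD 0.063), known in the mouse for its role in the translation of Hox mRNAs, also had the largest spread within groups (SD 0.065 for Rpl5 and 0.088 for Rpl29). Relative to the mean of all members in the same library, the median SD of a gene within groups fell from 0.051 to 0.017 in the Per1 experiment and from 0.045 to 0.017 in the Per2 experiment.

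On that relative scale, which was added after the data had been seen, the proportions among the ribosomal protein mRNAs could be compared. Relative to the member mean, 4 genes were higher with Per1 (Rps27l by 0.12, Rpl41 by 0.10, Rps15 by 0.079 and Rpl39 by 0.078) and 1, Rpl34, was lower (−0.15, SE 0.023, adjusted p = 0.000256). Of all genes tested, 9.78% were higher and 13.9% lower on this scale. With Per2, 7 genes were higher relative to the member mean, Rpl39 (0.088, SE 0.023, adjusted p = 0.0071), Rpl41 (0.083), Rps26 (0.078), Rps15 (0.072), Rpl24 (0.069), Rps27l (0.064) and Rpl7, a large subunit protein (0.057). Lower were 5, among them Rps27a (−0.078, SE 0.020, adjusted p = 0.00762), Rpsa (−0.074), Rplp1 (−0.066) and Rps12 (−0.054). The shares over all genes with Per2 were 32.8% higher and 5.06% lower, since the member mean itself was lower with Per2. Rps27l, Rpl41, Rps15 and Rpl39 were thus higher relative to the other members in both experiments, which is 100.0% of the 4 called with Per1 and 57.1% of the 7 called with Per2. The 2 experiments used different control libraries. None of the relatively lower genes was shared. Without Gfp library 14 only Rpl41 and Rps27l were relatively higher with Per1, and without Per2 library 1 or 3 only 3 genes were relatively lower with Per2. When each library was left out in turn, Rpl41 and Rps27l stayed relatively higher in all 10 fits with Per1, and Rpl24, Rpl39, Rpl41, Rps15 and Rps26 in all 10 with Per2, so that Rpl41 alone was called in every fit of both experiments. Its level is uncertain, since 91.2% of its 31-base sequences occur elsewhere in the genome. That share was 68.7% for Rps15, 30.3% for Rps27l and 21.6% for Rpl39.

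Side by side, the differences of the 77 genes with Per1 and with Per2 had a Pearson r of 0.66 and a Spearman rho of 0.72 across genes, which are not independent replicates. Over the 4652 other genes with a mean level of at least 13, r was 0.54, and over all 20153 genes tested in both experiments it was 0.63. By sign alone, 46 members were higher with Per1 and lower with Per2, 25 were lower in both, 6 were higher in both and none was lower with Per1 and higher with Per2. The order of the genes was thus similar while the whole group sat lower in the Per2 comparison. Whether the shift differs between Per1 and Per2 was not tested.

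The differences were lower in members with longer coding sequences and more exons. Across the 77 genes the difference had a Pearson r of −0.33 (Per1) and −0.44 (Per2) with the log2 of the coding length, which runs from 75 bases in Rpl41 to 1257 bases with a median of 453. The Spearman rho was −0.25 and −0.35. With the number of exons r was −0.32 and −0.37 (rho −0.29 and −0.36), and with the number of small nucleolar RNAs inside the gene r was −0.27 and −0.25 (rho −0.32 and −0.25). With Per2, 13 of the 39 members with a coding length of at most 453 bases were called lower, at a median difference of −0.046, and 23 of the 38 longer ones, at a median of −0.074. For other genes with a mean level of at least 13 (4548 with a coding length), r was −0.16 with Per1 and −0.066 with Per2. Of them, 274 had a coding length of at most 453 bases, at median differences of 0.040 with Per1 and 0.016 with Per2. The share of the transcript found elsewhere in the genome had an r of 0.033 with the Per1 and −0.073 with the Per2 differences, and 21 of the 47 members with at least 50% were called lower with Per2, beside 15 of the other 30. Members that host small nucleolar RNAs were called lower with Per2 in 18 of 29 cases and the others in 18 of 48, at medians of −0.077 and −0.055. A TOP-like tract did not separate them: 13 of 28 members with a tract were lower with Per2 and 12 of 29 without, at medians of −0.067 and −0.060. With Per1 both kinds had medians near 0.02 (0.019 with a tract and 0.020 without).

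The genes outside the group whose level most resembled the member mean differed between the experiments. Over the 10 libraries of the Per1 experiment they were Srp9 of the signal recognition particle (r = 0.998), the processed pseudogene Gm7536 (0.997) and Sdhb of respiratory complex II (0.992), and the pseudogene Rps3a3 was also among the nearest 8 (0.98). Over those of the Per2 experiment they were Rack1, itself a protein of the small subunit (0.99), the mitochondrial ADP/ATP carrier Slc25a5 (0.990) and the splicing factor Prpf31 (0.989).

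The ribosomal proteins with other names had values like those of the members. With Per2, Fau (small subunit protein eS30, made as a fusion with a ubiquitin-like protein) fell by 0.11 (SE 0.027, adjusted p = 0.00591) and Rack1 fell by 0.099 (adjusted p = 0.00387), while neither was called with Per1. Rps3a1 of the small subunit had differences of 0.010 (adjusted p = 0.801) with Per1 and −0.059 (adjusted p = 0.0725) with Per2. Of 5 paralogs tested, Rpl22l1, a copy of Rpl22, was the only gene called. It was lower both with Per1 (−0.11, SE 0.033, adjusted p = 0.014) and with Per2 (−0.14, SE 0.027, adjusted p = 0.00125), while Rpl22 itself had a difference of 0.029 (adjusted p = 0.42) with Per1 and fell by 0.062 (adjusted p = 0.0336) with Per2.

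Genes needed to build ribosomes were lower in both experiments. Of 49 ribosome biogenesis factors, the nucleolar and nuclear proteins that process rRNA and assemble subunits, 42 fell and none rose with Per1 (median −0.11), and 44 fell and none rose with Per2 (median −0.20). In contrast to the ribosomal proteins, their mean levels did not overlap between groups. They were 13.49 to 13.51 with Gfp and 13.37 to 13.40 with Per1, and 13.46 to 13.50 with Gfp and 13.28 to 13.31 with Per2. Wdr43, a component of the small subunit processome, fell by 0.23 (SE 0.017, adjusted p = 1.12e-07) with Per1 and by 0.37 (SE 0.017, adjusted p = 2.07e-09) with Per2. The nucleolar phosphoprotein gene Nolc1 fell by 0.21 with Per1, and Mybbp1a, which encodes a nucleolar Myb-binding protein, fell by 0.30 with Per2.

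Of 19 genes for RNA polymerase I, which transcribes rRNA, and its factors, 8 fell and 1 rose with Per1, and 11 fell and 0 rose with Per2. The falls were 42.1% of the list with Per1 and 57.9% with Per2. Over all genes tested, 20.6% were lower and 20.1% higher with Per1, and 17.5% and 18.6% with Per2. That list includes Myc, a transcription factor known to drive ribosome production, which fell by 0.28 (SE 0.018, adjusted p = 2.8e-08) with Per1 and by 0.54 (SE 0.030, adjusted p = 1.48e-08) with Per2. Polr1b, the second-largest subunit of the polymerase, fell by 0.24 with Per1. Host genes of small nucleolar RNAs without a ribosomal protein showed 4 lower and 1 higher of 13 with Per1, and 12 lower and 1 higher with Per2 (median −0.26). The falls were 30.8% of the list with Per1 and 92.3% with Per2. The Per1 count varied with the setting, from 4 to 10 lower, with 9 after median centring and 10 without Per1 library 12. Snhg1 fell by 0.19 with Per1 and by 0.37 with Per2, and Snhg18 was the gene that rose, by 0.20 and 0.19.

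Many translation factors were also lower with Per2. Of 26 initiation factors, 11 fell with Per1 and 16 with Per2, and none rose, led by Eif1a, which acts in start site scanning (−0.17 with Per1, −0.21 with Per2). Of 16 elongation factors and other mRNAs of the TOP class, 5 fell and 1 rose with Per1, and 11 fell and 1 rose with Per2. The falls were 42.3% of the initiation factors with Per1 and 61.5% with Per2, and 31.25% and 68.75% of the second list. Among genes tested with a mean level of at least 13, 36.7% were called lower with Per1 and 26.6% with Per2. Npm1, a nucleolar chaperone, fell by 0.10 (SE 0.024, adjusted p = 0.00305) with Per1 and by 0.22 (SE 0.020, adjusted p = 1.79e-06) with Per2, and Hnrnpa1, an RNA-binding protein, was the gene that rose (0.15 and 0.088). Of 20 genes listed for TORC1 and the control of TOP mRNA translation, 4 rose and 6 fell with Per1, and 5 rose and 4 fell with Per2, beside 20.1% higher and 20.6% lower of all genes tested with Per1 and 18.6% higher and 17.5% lower with Per2. The list also holds genes of kinases that halt initiation in general, among them Eif2ak2, given below. After median centring the Per2 counts turned to 3 higher and 6 lower, beside 13.4% higher and 24.8% lower of all genes tested. Ddit4, an inhibitor of TORC1, rose by 0.32 (SE 0.022, adjusted p = 4.82e-08) with Per1, and Eif2ak2, the RNA-activated kinase that halts initiation, rose by 0.31 with Per1 and 0.38 with Per2. Larp4, which binds and stabilizes mRNAs, fell by 0.23 and 0.27.

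The proteins of the mitochondrial ribosome, a separate particle, had more rises than falls on the values as deposited. Of 78 genes, 25 rose and 4 fell with Per1 (median 0.029), and 17 rose and 7 fell with Per2 (median 0.018). These counts are 32.1% and 5.1% of the list with Per1, and 21.8% and 9.0% with Per2. Over all genes tested, 20.1% were higher and 20.6% lower with Per1, and 18.6% and 17.5% with Per2. This balance depended on the centring, after which 13 were higher and 10 lower with Per1, and 7 higher and 14 lower with Per2. The shares over all genes moved the same way, to 15.0% higher and 28.8% lower with Per1, and 13.4% and 24.8% with Per2. Mrpl54 of the large mitochondrial subunit rose by 0.20 (SE 0.029, adjusted p = 5.16e-05) with Per1 and by 0.24 (SE 0.026, adjusted p = 8.47e-06) with Per2, and Mrpl3 fell by 0.076 and 0.13. The falls in the ribosome biogenesis list outnumbered its rises under every setting that was run, with 39 to 44 lower with Per1 and 42 to 45 lower with Per2, except that relative to the mean of the ribosomal protein genes 34 were lower and 1 higher with Per2.

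**Figure D5:**
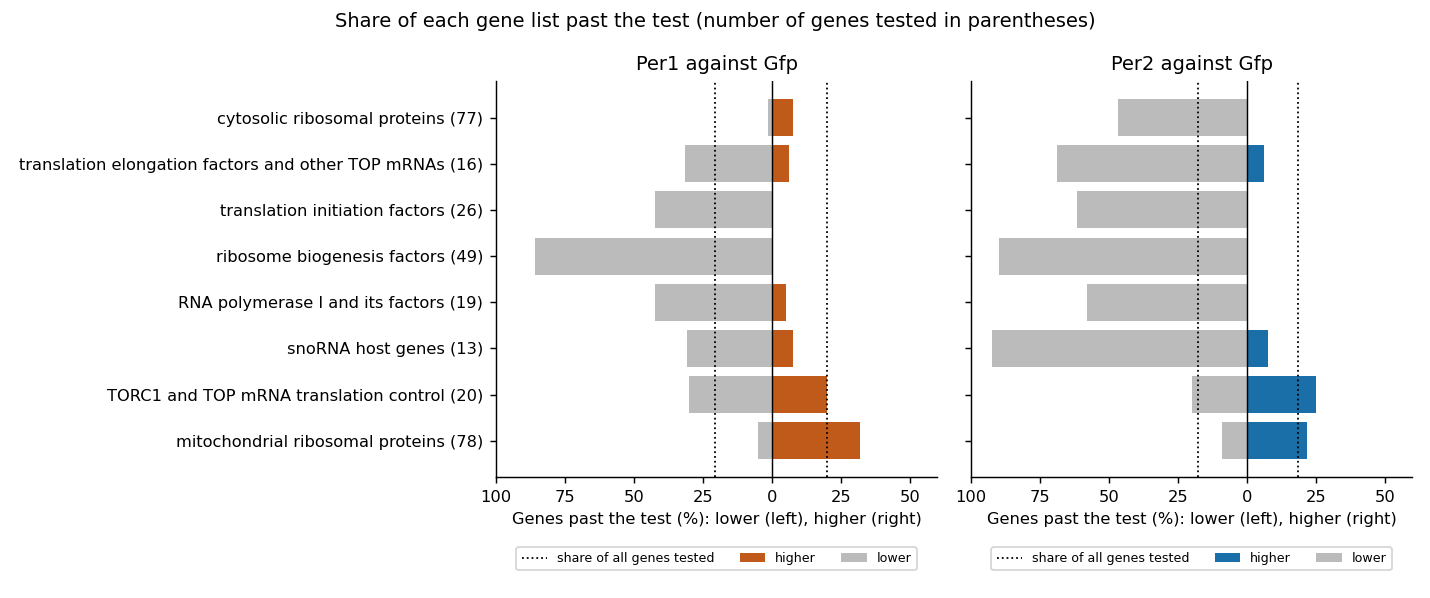
Share of each gene list called lower (grey, to the left of 0) or higher (coloured, to the right of 0), in percent of the genes tested (number in parentheses), with Per1 (left) and Per2 (right). Dotted lines mark the shares over all genes tested, 20.6% lower and 20.1% higher with Per1 and 17.5% lower and 18.6% higher with Per2; 44 of 49 ribosome biogenesis factors and 36 of 77 ribosomal proteins were lower with Per2.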

How the data were processed

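RNA sequencing covered 20 libraries of C2C12 myotubes in 4 groups of 5. The authors used STAR to align poly(A) reads, took counts per gene and deposited rlog values, a log2 scale made with DESeq2 that draws differences toward 0, for 55335 genes. These log2 values hold no counts, so the depth is not known and no counting interval can be given. All columns were used (0 left out). The genome is GRCm39 in the study's methods and mm10 in the labels. Symbols, positions and transcripts came from GENCODE M39 (51654 IDs matched, 35 in the same version), and promoter sequences from RefSeq (GRCm38.p6), whose coordinates are on that build.

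Gfp libraries were assigned to an experiment by the number series of their labels. The experiments had been normalized separately (2712 genes were 0 throughout the Per1 experiment only and 2391 throughout the Per2 experiment only), so each was tested alone. Testing was limited to genes whose mean rlog reached 3 and used limma 3.58.1 in R 4.3.3 (trend in the prior variance, two-sided), with Benjamini-Hochberg adjustment over all genes tested, and called at 0.05. The procedure was tested on simulated data. Summaries used Python 3.11.15, numpy 2.4.6 and pandas 2.3.3. Transcript lengths come from 1 coding transcript per gene, some with long annotated 3′ ends.

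Members and gene lists were chosen with earlier results of these data known. Members named by rule are the 6 highest and 6 lowest differences of each comparison, the 3 highest and 3 lowest levels per kilobase, the 3 with the largest SD within groups, paralogs, and genes called in opposite directions. Of each list, the 2 largest rises and 2 largest falls among called genes could be named. Other genes (Rps12, Rplp2, Rpl14, Rps9, Rps6, Rpl4, Rpl11, Rpl17, Rpl7, Rps27, Rpl22, Rps3a1) were chosen after their values were seen. A few genes are not reported here. Library numbers shared between groups did not pair the libraries: same-numbered deviations correlated from −0.015 to 0.14 in the Per1 and from −0.10 to 0.18 in the Per2 experiment. Alternatives were median centring, quantile normalization, no filter or a filter at 5, no trend, array weights, the library number as a block, a fold threshold of 0.5, groups without overlap, a member threshold of 10, leaving out each library and, added after the data were seen, centring on the member mean.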

Additional observations from a re-analysis of the deposited data

Results flagged for a closer look

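For the 22 members named by rule and the mean of all members, 92 groups of 5 libraries were examined for a library far from the rest, and 3 had 1, where chance gives about 1 in 20. Rpl12 was lowest in Gfp library 11 of the Per1 experiment (14.229), where the other 4 Gfp libraries lay from 14.31 to 14.32. Rpl38 (14.172) and Rps25 (15.584) were highest in Per1 library 12, the library in which the mean of all members was also highest. None of the 3 genes was called in the Per1 comparison.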

How the results depend on the processing

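Apart from centring on the member mean, which removes a shared shift by construction and left 5 members lower and 7 higher, the fall with Per2 kept its direction, with 28 to 46 members lower when 1 library was left out, 27 after quantile normalization and 0 higher. Of the 36 genes, 24 were called under all 17 other alternatives that refitted the model. Requiring groups without overlap left 14, and a difference of 0.5 left 0. The median lay between −0.080 and −0.053 without 1 library. The Per1 counts were less stable. Members higher with Per1 numbered 14 after quantile normalization, 2 without overlap and 0 at a difference of 0.5, and 4 to 12 without 1 library (12 without Per1 library 11). Members lower with Per1 numbered 3 after median centring, 2 with array weights, 0 without overlap and 0 at a difference of 0.5, and 1 to 6 without 1 library (6 without Per1 library 12, 2 without Gfp library 11), where the median ran from −0.0029 to 0.028. The cause was not tested. Among the refits, shares over all genes were taken only for median centring and for centring on the member mean. Rpl39, Rpl41, Rps15, Rps27l and Rpl34 were called with Per1 under all 17 and on the member mean. With the library number as a replicate block, which leaves out Gfp library 16 and Per1 library 12, 11 members were higher and 3 lower with Per1 and 39 lower with Per2. Relative to the member mean, leaving out 1 library gave 2 to 5 genes higher and 1 to 2 lower with Per1 (2 higher without Gfp library 14, 2 lower without Gfp library 16 or Per1 library 12), and 5 to 8 higher and 3 to 7 lower with Per2 (3 lower without Per2 library 1 or 3). For the named members, 338 of the values with Per2 and 328 with Per1 kept direction and call, 4 and 16 lost a call, 6 and 14 gained 1, and 26 and 16 uncalled values changed sign. Depth is unknown, and the smallest member difference that was called was that of Rpl22 with Per2 (−0.062).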
